A study of Mus musculus with 170 samples.

Results

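The 6 actin isoforms of the mouse were followed in single ventricular cells of embryonic day 9.5 hearts. The rule that picked them used gene names and no measured value, and the names were Actc1, Acta1, Acta2, Actg2, Actb and Actg1, and all 6 were found among the 40549 rows of the expression table. Cells came from hearts of 2 genotypes on a C57BL/6 background, and each was read by Smart-seq2, which copies full-length cDNA from polyadenylated RNA. Control embryos carried a pair of floxed Dgcr8 alleles (Dgcr8 loxP/loxP) and 1 copy of the Rosa26 mT/mG reporter, without Cre. Conditional knockout (cKO) embryos carried the same floxed alleles and reporter together with Mesp1 Cre/+, so that Cre made from the Mesp1 locus acted in early cardiovascular progenitors. The labels call these groups wild type and Mesp1Cre/+; Dgcr8-/-. The question of the comparison was what heart muscle cells look like when Dgcr8, a core protein of the microprocessor that cuts microRNA precursors, is deleted at the onset of heart formation. The table holds 143 cells, 74 control and 69 cKO, sequenced in 2 batches. The labels name no embryo for a cell, so each genotype counted as 1 sample, no test was run, and every SD below is the scatter over cells.

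Actin is the globular protein that assembles into filaments. Vertebrates make it from a family of near-identical proteins that differ chiefly at the amino terminus. Actc1 and Acta1 encode the cardiac and skeletal muscle alpha-actins of the sarcomeric thin filament, and both are made in the embryonic heart. Acta2 encodes vascular smooth muscle alpha-actin, which early cardiomyocytes also express before it becomes restricted to smooth muscle. Actg2 encodes the gamma-actin of visceral smooth muscle. Actb and Actg1 encode the beta- and gamma-actins of the cytoplasm, which build the cell cortex and stress fibres of most cell types. Serum response factor, with its cofactors, binds CArG boxes in actin promoters and is a classic activator of these genes.

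The cells were sorted into classes from 55 markers of 5 cell types, none of them an actin, since the actins were what was measured. The study counts some of the isoforms among its own class markers. A cardiomyocyte-like (CM-like) cluster of 94 cells held 28 control and 66 cKO cells, and all 15 cardiomyocyte markers were raised in it. An endothelial-like cluster held 22 cells with all 13 endothelial markers raised. An unnamed cluster of 14 cells had 5 of 6 epicardial and 7 of 14 mesenchymal markers, and an erythroid-like cluster held 3 cells. All cells of these last 3 clusters were control cells. A further 10 cells, 7 control and 3 cKO, formed an unnamed cluster led by mitochondrial transcripts. The TPM of a cell keeps no read depth, and the number of detected genes stood in for it. In CM-like cells it ran from 3805 to 11468 in control and from 4468 to 11044 in cKO. The targeted gene Dgcr8 reached a TPM of 1 in 16 of 28 control CM-like cells, 57.1% (exact 95% interval 37.2 to 75.5). In cKO CM-like cells it did so in 21 of 66, 31.8% (20.9 to 44.4). A TPM over the whole transcript cannot show whether the floxed part was missing. The genotypes also differed in sex-linked RNA. Ddx3y, a Y-linked gene, reached a TPM of 1 in 66.2% of control cells and in 0 of 69 cKO cells (exact 95% interval 0 to 5.21). Effects of sex and of genotype cannot be told apart.

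The 6 genes lie on 6 chromosomes of GRCm38 in the GENCODE M21 annotation, all on the minus strand. Actc1 is at chr2:114047282-114053548, Acta1 at chr8:123891769-123894751 and Acta2 at chr19:34241090-34255590. Actg2 is at chr6:83512905-83536265, Actb at chr5:142903115-142906754 and Actg1 at chr11:120345690-120348542. RefSeq promoter entries on GRCm38.p6, running from 250 bases before to 50 bases after the start, were at hand for 4 of them (Actc1, Acta1, Acta2 and Actg1). The CArG box is CC, then 6 letters that are each A or T, then GG, and it reads the same way on both strands. The promoter windows of Actc1, Acta1 and Actg1 each held 1 such box, and 1.63% of 32851 promoters of the same length held one. The window of Acta2 held none, but had 2 boxes in which 1 of the 6 letters was G or C, a relaxed form found in 8.50% of promoters. Actc1 had 3 relaxed boxes and Acta1 had 2 beside the exact one, and Actg1 had none. They are shown because this element is the best known link between the isoforms, with the box in capitals and the sequence read in the direction of the gene, 5′ to 3′:
Actc1, 47 to 38 bases before the start, chr2:114052903-114052932: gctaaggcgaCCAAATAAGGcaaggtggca
Acta1, 73 to 64 bases before the start, chr8:123894829-123894858: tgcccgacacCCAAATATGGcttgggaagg
Actg1, 90 to 81 bases before the start, chr11:120348566-120348595: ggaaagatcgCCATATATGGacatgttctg
Acta2, relaxed, 84 to 75 bases before the start, chr19:34255438-34255467: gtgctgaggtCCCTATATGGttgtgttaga
Acta2, relaxed, 34 to 25 bases before the start, chr19:34255388-34255417: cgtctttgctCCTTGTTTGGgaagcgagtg
A match is a description of letters and not evidence of binding. The muscle genes Actc1 and Acta1 and the cytoplasmic gene Actg1 thus shared an exact box in this window.

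Because microRNAs are lost with Dgcr8, the longest annotated 3′ untranslated region of each isoform was searched for the sites of heart and muscle microRNAs. The mature sequences below are those of miR-541-5p, the microRNA the study examined in most depth, and of miR-206-3p, which has the seed of the muscle microRNA miR-1. Capitals mark the seed, bases 2 to 8:
mmu-miR-541-5p: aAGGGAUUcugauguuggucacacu
mmu-miR-206-3p: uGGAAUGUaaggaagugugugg
No 7-base match to either seed was present in the untranslated regions of the 6 actins, which ranged from 80 bases in Actg2 to 700 bases in Actg1 and included 683 bases in Actb. The seeds of the myosin-gene microRNAs miR-499-5p and miR-208a-3p had no match there either. Over 20941 genes, a match was present in 8.04% for miR-541-5p, 10.1% for miR-206-3p, 9.43% for miR-499-5p and 1.53% for miR-208a-3p. This says only that these letters are not in these windows, and other microRNAs were not searched.

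Actb and Actg1, the cytoplasmic isoforms, were the members that differed most between genotypes. In CM-like cells, mean Actb was 10.13 ± 0.79 on the log2(TPM + 1) scale in control (SD over 28 cells) against 13.05 ± 0.74 in cKO (SD over 66 cells). Mean Actg1 was 7.68 ± 2.03 in control and 10.85 ± 0.96 in cKO. Both differences exceeded the SD over cells of either genotype, and both were present in each batch. A gene was counted as past the fold when the difference of means was at least 1 log2 unit in the same direction in each batch. By that rule 2 of the 6 actins were higher in cKO CM-like cells and 0 were lower, against a background of 3.00% of 15076 genes higher and 2.67% lower.

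Actb ranged from 244 to 2351 TPM in control CM-like cells, with a median of 1288. In cKO CM-like cells it ranged from 1067 to 14855 TPM, with a median of 9980.3. Most cKO cells lay above the control range, while only the lowest cKO cell, at 1067 TPM, was below the control median. Above the highest control value lay 61 of 66 cKO cells, 92.4% (exact 95% interval 83.2 to 97.5, counting error only). Set against the highest control cell of the same batch, 32 of 33 cKO cells lay above it in batch 1 and 31 of 33 in batch 2. The cKO minus control difference was 2.91 log2 units, with 3.13 in batch 1 and 2.46 in batch 2, and only 41 of 15076 genes ranked above it. The 5 cKO cells that stayed within the control range had 1067 to 2162 TPM of Actb, and none of the 5 was above the control range for Actg1 either. These 5 cells came from both batches, had 4468 to 10631 detected genes and carried 2607 to 46829 TPM of Actc1, so they were neither uniformly shallow nor poor in muscle actin. They were not alike, as the cell with 4468 detected genes had only 5288 TPM of total actin. Actb and Actg1 made up 40.5% of it, against at most 12.9% in control CM-like cells. In the rest of these cells that share was 2.74 to 9.46%.

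Actg1 varied more among control cells, from 4.06 to 1339 TPM with a median of 329. In cKO CM-like cells it ranged from 195 to 5322 TPM with a median of 1905. A few control cells with very little Actg1, visible in the plot of levels by class, added to this spread. Above the highest control value lay 53 of 66 cKO cells, 80.3% (exact 95% interval 68.7 to 89.1), and 53 of 66 were above it for Actb and Actg1 together. The difference was 3.17 log2 units, with 3.05 in batch 1 and 3.40 in batch 2, and 25 genes ranked above it. Among CM-like cells, log2 Actb minus log2 Actg1 averaged 2.45 ± 1.93 in control and 2.20 ± 0.65 in cKO, a gap smaller than the SD over cells of either genotype. This balance had no common direction in the batches, at 2.13 in control and 2.21 in cKO in batch 1 but 3.13 and 2.18 in batch 2, where the SD over the 9 control cells was 2.68.

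**Figure D1:**
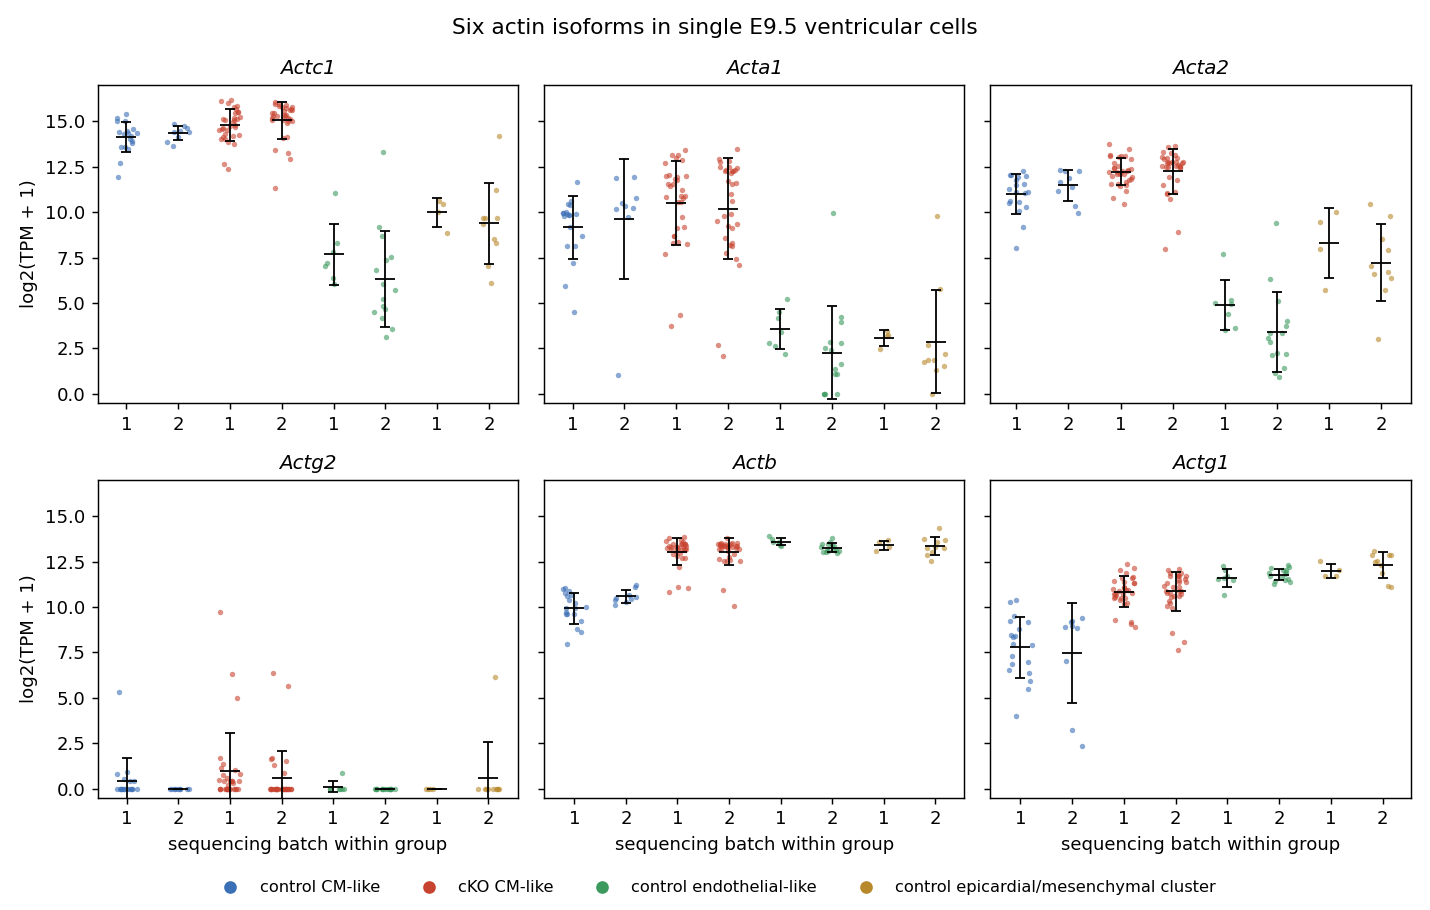
Each panel plots log2(TPM + 1) of 1 actin isoform, with 1 point per cell, for batches 1 and 2 of control CM-like, cKO CM-like, control endothelial-like and control epicardial/mesenchymal-cluster cells; black bars are the mean ± SD over cells. Mean Actb of cKO CM-like cells lay near the levels of the non-muscle control classes shown. Mean Actg1 lay below those classes and above control CM-like cells. Actc1 and Acta2 kept to muscle levels in both genotypes and Actg2 was near 0 in most cells.

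Other measures moved with genotype among CM-like cells. Mitochondrial transcripts made up 3.15 to 41.1% of TPM in control cells (median 6.27%) and 0.580 to 20.6% in cKO cells (median 2.95%). With CM-like cells under 20% mitochondrial TPM only, a limit chosen after seeing the data, the differences were 2.84 for Actb and 2.95 for Actg1. Most markers of the other cell types were at or near 0 in both genotypes, with a few exceptions. The summed TPM of 13 endothelial markers ranged from 2.99 to 274 in control (median 24.2) and from 2.76 to 412 in cKO (median 54.1), and 0 of 13 were past the fold. Of these, 7 had a median of 0 in both genotypes, among them Cdh5, Tek and Emcn, which define endothelium. The highest difference was that of the adhesion molecule Pecam1, at 2.45 in control and 3.25 in cKO (0.63 in batch 1 and 0.78 in batch 2), and the lowest was that of Icam2, another adhesion molecule, at -0.89. Egfl7, a secreted vascular factor, was also detected, at 2.58 in control and 2.86 in cKO. Its difference had opposite directions in the batches, at 1.74 in batch 1 and -2.22 in batch 2. The summed TPM of 14 mesenchymal markers ranged from 1.503 to 576 in control (median 72.3) and from 4.23 to 1893 in cKO (median 278), and 1 of the 9 that passed the filter on low values was higher. That gene was Vcan, a matrix proteoglycan of cardiac jelly, at 6.23 in control and 7.79 in cKO, 1.56 log2 units higher, whereas Postn, Pdgfra and Pdgfrb had a median of 0 in both genotypes. The 6 epicardial markers summed to 0 to 131 TPM in control and 0 to 355 in cKO, with 0 past the fold, and Wt1, an epicardial transcription factor, had the highest difference at 0.75 (1.39 in batch 1 and -0.07 in batch 2). The 7 erythroid markers had medians of 8.96 and 7.35 TPM, with 35446 in a single control cell. The cardiomyocyte markers also differed between genotypes, and 4 of the 15 were past the fold. By the same rule 3.00% of all 15076 genes were higher and 2.67% lower, the background for every marker count here. The myosin light chain Myl3 (-2.37), the troponin Tnni3 (-2.12) and the calcium pump regulator Pln (-3.10) were lower in cKO, and the calcium release channel Ryr2 (1.66) was higher. The part of these cells or RNAs in the actin result was not tested.

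The sarcomeric isoforms were higher in cKO cells by smaller amounts, and neither was past the fold in both batches. Actc1, the main actin of the heart, ranged from 3988 to 43689.8 TPM in control CM-like cells (median 20932) and from 2607 to 72893 in cKO (median 35897). Mean log2(TPM + 1) was 14.20 ± 0.73 in control and 14.92 ± 0.96 in cKO, and the difference of 0.72 was smaller than either SD. The difference was 0.66 in batch 1 and 0.71 in batch 2. Above the highest control cell of both batches lay 23 of 66 cKO cells, 34.8%. Within batch 2 alone 27 of 33 did, but the 9 control cells of that batch did not reach as high as those of batch 1.

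Acta1, the skeletal muscle isoform that the heart also makes, was the most uneven of the abundant isoforms. It ranged from 1.07 to 3864 TPM in control CM-like cells (median 974) and from 3.28 to 11257 in cKO (median 1978). The lower and upper quartiles were 542 and 1347 TPM in control but 452 and 4869.9 TPM in cKO, so the middle of the distribution was broader in cKO. Of the 66 cKO cells, 22 (33.3%) lay above the highest control value and 44 lay within the control range. The difference of means was 1.04 log2 units, 1.33 in batch 1 and 0.58 in batch 2, against SDs of 2.30 in control and 2.53 in cKO.

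Acta2, the vascular smooth muscle isoform, was present in every CM-like cell. It ranged from 262 to 5081 TPM in control (median 2571) and from 248 to 13708 in cKO (median 5626). Above the highest control value lay 38 of 66 cKO cells, 57.6% (exact 95% interval 44.8 to 69.7). The difference of 1.08 log2 units, 1.22 in batch 1 and 0.77 in batch 2, was about as large as the SDs of 1.02 and 1.01. Of 8 other smooth muscle genes, 6 passed the filter on low values. The actin-binding calponin Cnn1 was past the fold, 2.70 log2 units higher in cKO, where 3.00% of all 15076 genes were higher. The other 5 were not, Smtn among them at -0.90, and Myh11, the defining myosin of smooth muscle, had a median of 0 in both genotypes.

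Actg2, the visceral smooth muscle isoform, was nearly silent. It reached a TPM of 1 in 1 of 28 control CM-like cells, 3.57% (exact 95% interval 0.0904 to 18.3), and in 13 of 66 cKO CM-like cells, 19.7% (10.9 to 31.3). The median was 0 in both genotypes. A single cKO cell held 843 TPM and no other cell exceeded 80.6 TPM. The difference of means of 0.46 log2 units was 0.33 without that cell, a check added after seeing the data. The related actin rows Actg-ps1 and Actbl2 did not exceed 12.2 and 40.8 TPM in any cell.

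**Figure D2:**
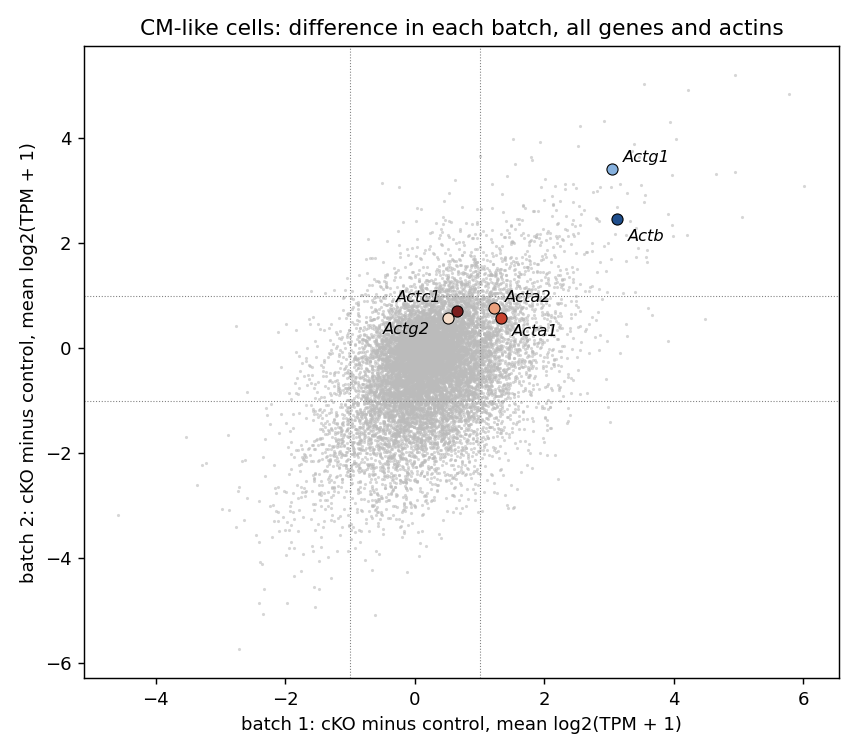
The difference of mean log2(TPM + 1), cKO minus control, in CM-like cells is plotted for batch 1 (x axis) against batch 2 (y axis), with 1 grey point for each of 15076 genes and coloured points for the 6 actins; dotted lines mark 1 log2 unit. Actb (3.13 and 2.46) and Actg1 (3.05 and 3.40) stood apart in both batches, and the other 4 isoforms lay between 0.51 and 1.33 in batch 1 and between 0.58 and 0.77 in batch 2.

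The make-up of actin mRNA differed accordingly. In CM-like cells Actc1 made up 78.5% ± 6.40 of total actin TPM in control and 61.6% ± 11.9 in cKO (SD over cells), although its own mean level was not lower. Actb made up 5.29% ± 2.50 in control and 18.8% ± 9.06 in cKO. Actg1 made up 1.498% ± 1.32 in control and 4.17% ± 2.48 in cKO. Acta2 made up 10.5% in control and 10.2% in cKO, a gap well within the SD. Acta1 made up 4.17% and 5.24%, but its share was higher in cKO in batch 1 (3.44% and 5.35%) and lower in batch 2 (5.72% and 5.13%). For Actb the share was above every control cell in 53 of 66 cKO cells, and for Actg1 in 13 of 66. The Actc1 share was below every control cell in 39 of 66 cKO cells. Shares within a cell are tied to one another, so a larger Actb share lowers that of Actc1 by construction.

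Cell by cell, the order of isoforms differed below the top. TPM is scaled to transcript length, so levels of different isoforms can be set side by side. Actc1 was the most abundant isoform in 28 of 28 control and 64 of 66 cKO CM-like cells, and Actb was in the other 2. Actb exceeded Acta2 in 4 of 28 control cells and in 53 of 66 cKO cells. It exceeded Acta1 in 19 of 28 control and 60 of 66 cKO cells. Actb exceeded Actg1 in 26 of 28 control and 66 of 66 cKO cells. The runner-up isoform after Actc1 was thus mostly Acta2 in control and mostly Actb in cKO cells.

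**Figure D3:**
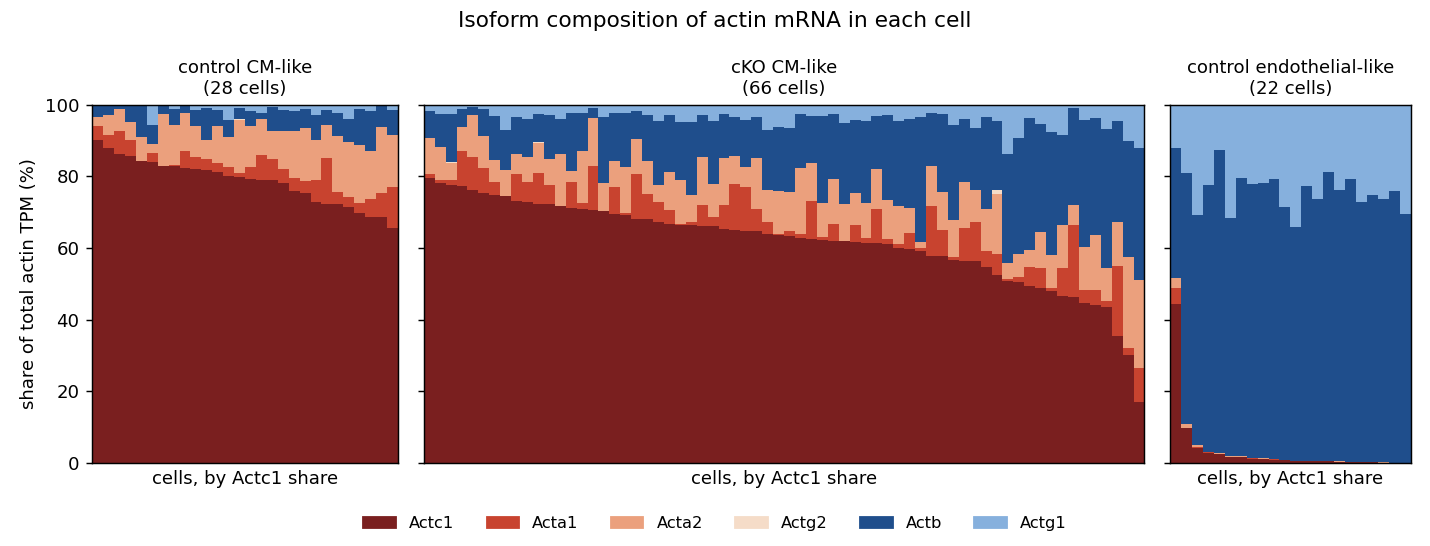
Each vertical bar is 1 cell, split by the share of total actin TPM (%) of each isoform, for control CM-like (28), cKO CM-like (66) and control endothelial-like (22) cells ordered by their Actc1 share. The cytoplasmic isoforms (blue) took 6.79% on average in control CM-like, 22.96% in cKO CM-like and 96.1% in control endothelial-like cells.

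Total actin was higher as well. Of all TPM of a CM-like cell, the 6 isoforms together took 0.488 to 5.06% in control (median 2.62%) against 0.529 to 9.87% in cKO (median 5.49%). On the log2 scale the total was 14.55 ± 0.71 in control and 15.66 ± 0.72 in cKO, a gap larger than the SD over cells. The log2 ratio of muscle (Actc1, Acta1, Acta2 and Actg2) to cytoplasmic (Actb and Actg1) actin TPM averaged 3.95 ± 0.83 in control against 1.92 ± 0.99 in cKO CM-like cells. The ratio was below the lowest control cell in 57 of 66 cKO cells. The cKO minus control difference of the ratio was -2.24 in batch 1 and -1.73 in batch 2. The muscle sum stayed above the cytoplasmic sum in every CM-like cell but by a smaller factor in cKO.

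**Figure D4:**
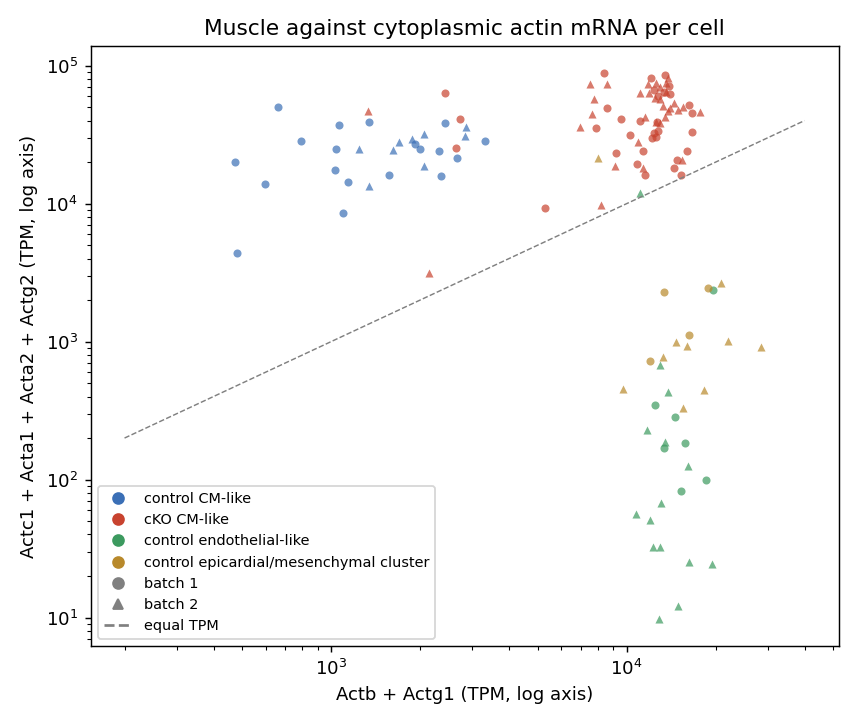
Summed TPM of the muscle isoforms (y axis, log) is plotted against summed TPM of the cytoplasmic isoforms (x axis, log) for each cell, with circles for batch 1, triangles for batch 2 and a dashed line at equal TPM. Most cKO CM-like cells combined the muscle sum of CM-like cells with a cytoplasmic sum in the range of the non-muscle control cells, and all CM-like cells lay above the line.

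The non-muscle control classes gave the reference levels for the cytoplasmic isoforms. Actb was 13.37 ± 0.27 on the log2(TPM + 1) scale in 22 endothelial-like cells, 13.37 ± 0.45 in 14 cells of the epicardial and mesenchymal cluster and 11.49 ± 0.90 in 3 erythroid-like cells. The cKO CM-like cells came next, 0.32 below endothelial-like cells (0.54 in batch 1 and 0.22 in batch 2). This gap was within the SD of the cKO cells but larger than the SD of 0.27 of endothelial-like cells. Erythroid-like cells followed and control CM-like cells were last, each lower than the group before it by more than the SD of either. For Actg1 the order was 12.22 ± 0.64 in the epicardial and mesenchymal cluster, 11.73 ± 0.39 in endothelial-like, 10.85 ± 0.96 in cKO CM-like, 9.62 ± 2.04 in erythroid-like and 7.68 ± 2.03 in control CM-like cells. The gap of 0.88 between endothelial-like and cKO CM-like cells was 0.78 in batch 1 and 0.93 in batch 2. No neighbours in this order of Actg1 levels differed by more than the larger of their SDs.

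Within control cells, all 5 abundant isoforms differed between endothelial-like and CM-like cells. Endothelial-like cells had more Actb (3.23) and Actg1 (4.05), and less Actc1 (-7.44), Acta2 (-7.26) and Acta1 (-6.63), each as log2 units relative to control CM-like cells. All 5 differences were past 1 log2 unit, where 22.6% of 13199 genes were higher and 8.94% lower, and Actg2 was not, at -0.27. The cytoplasmic differences between these control classes were close in size to the cKO minus control differences in CM-like cells, which share the same control CM-like cells. Endothelial-like cells held Actb at 72.4% ± 9.51 and Actg1 at 23.7% ± 5.598 of actin TPM.

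The epicardial and mesenchymal cluster was intermediate for muscle isoforms. Its Acta2 was 7.52 ± 2.05 and its Actc1 9.56 ± 1.92 on the log2 scale, below control CM-like cells by 3.62 and 4.64. Acta1 was 2.94 ± 2.38, about as low as the 2.68 ± 2.25 of endothelial-like cells. Among these non-muscle cells 2 had more Actc1 than the rest. An endothelial-like cell had 10232 TPM of Actc1 with 832 TPM of the cardiac troponin Tnnt2, and a cell of the epicardial and mesenchymal cluster had 18999.8 TPM of Actc1 with 909 TPM of Tnnt2. Both came from batch 2, and whether they were single cells was not tested.

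Among CM-like cells 2 pairs of isoforms varied together most. After the mean of each genotype and batch was removed, Pearson's r over the 94 cells was 0.63 for Actc1 and Acta2 (Spearman 0.56) and 0.53 for Actb and Actg1 (Spearman 0.52). No other pair exceeded 0.33, and Acta1 and Actb had -0.03. Within each genotype the first pair was alike, at 0.59 in control and 0.64 in cKO. Actb and Actg1 were at 0.32 in control and 0.74 in cKO, and in control cells Acta1 and Actg1 (0.54) and Acta2 and Actb (0.47) were higher than that. In cKO cells Acta2 and Actg1 reached 0.47. These are descriptions over cells of 2 samples. The number of detected genes is shared by all points and correlated with Actg1 at 0.49, with Acta2 at 0.42 and with Actb at 0.23.

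The genes most like each isoform over these cells were then read off among 5857 genes detected in most CM-like cells. For Actc1 they were Myl9, a myosin regulatory light chain (0.77), Cryab, a small heat shock protein of muscle (0.71), and Gyg, the glycogen primer glycogenin (0.70). For Acta2 they were Myl12a, another regulatory light chain (0.71), Pdlim7, a cytoskeletal adaptor (0.68), and the glycolytic enzyme Pgam1 (0.68). For Acta1 the top values were lower, at 0.45 for Churc1, 0.41 for Gpx3 and 0.41 for Ctsb. Within control cells alone these were 0.61, 0.77 and 0.76, and within cKO cells 0.37, 0.18 and 0.24. For Actb they were Nmt2 (0.56), Set (0.56) and Actg1 itself (0.53). For Actg1 they were Ywhae, a 14-3-3 protein (0.68), the histone gene H3f3b (0.66) and Tpm4, a non-muscle tropomyosin (0.66). Actg2, detected in few cells, had Dnajb4 (0.37), Crbn (0.37) and Kdsr (0.35).

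The measured genes that act on actin differed less than Actb and Actg1, which ranked 42 and 26 from the highest of 15076 genes. Over all 15076 genes the median cKO minus control difference was 0.06 log2 units, with 0.17 in batch 1 and -0.15 in batch 2. By the fold rule 3.00% of all genes were higher and 2.67% lower, the background for the counts of each list below. Serum response factor itself, Srf, differed by 0.32, and of the 6 measured genes of its list 1 was past the fold. That was Myocd, the cofactor of cardiac and smooth muscle, at 6.03 in control and 7.85 in cKO, a difference of 1.82 (1.91 in batch 1 and 1.61 in batch 2). The lowest of the list was Lmo7 at -0.76, and the list's median was 0.35.

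Actin folds with the help of prefoldin and of the ring-shaped CCT chaperonin. Of 15 such genes 0 were past the fold in either direction, and the median was -0.25, with 0.09 in batch 1 and -0.61 in batch 2. The highest was Pdcl3, a phosducin-like partner of CCT, at 1.27, and the lowest was Pfdn6, a prefoldin subunit, at -1.07. Among 3 maturation enzymes 0 were past the fold, from 0.61 for Setd3, the actin histidine methyltransferase, to -1.54 for Naa10, an amino-terminal acetyltransferase.

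Proteins that bind actin monomers had a median of 0.43, and 1 of 11 was past the fold. It was Twf1, a twinfilin, at 5.45 in control and 6.70 in cKO (1.49 in batch 1 and 1.13 in batch 2), while its paralog Twf2 was the lowest at -0.80. The abundant profilin Pfn1 and cofilin Cfl1 differed by 0.43 and 0.21. Of 10 measured actin-related proteins 1 was past the fold, and it was lower. That was Actr3b, a variant of the Arp3 subunit of the Arp2/3 complex, at -2.11 (-1.70 in batch 1 and -2.73 in batch 2). Its paralog Actr3, the common Arp3 subunit, was the highest of the list at 1.32, with 1.74 in batch 1 and 0.53 in batch 2.

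**Figure D5:**
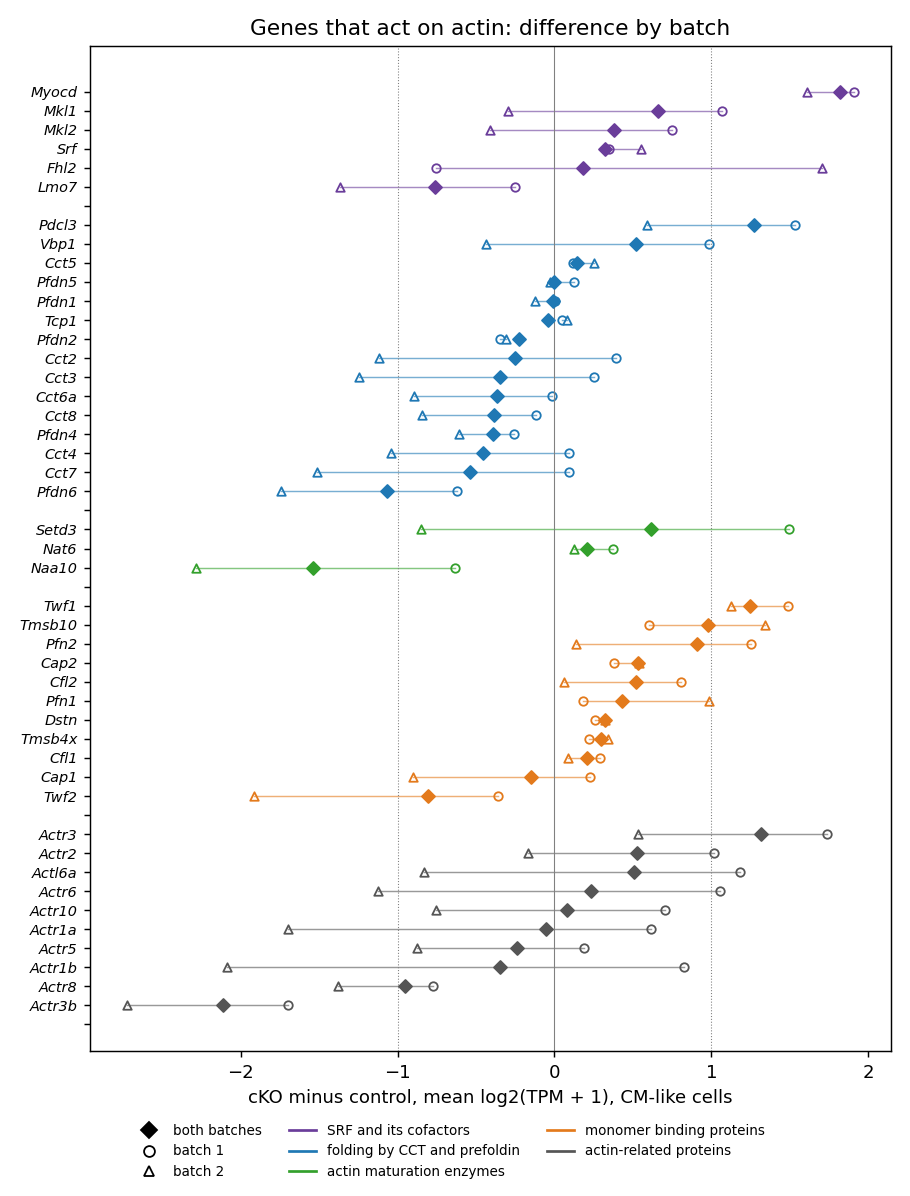
The difference of mean log2(TPM + 1), cKO minus control, in CM-like cells is shown for the measured genes of 5 lists, with a diamond for both batches, a circle for batch 1, a triangle for batch 2 and dotted lines at 1 log2 unit. Myocd and Twf1 lay above 1 in both batches, and Actr3b lay below -1 in both, whereas Actr3 was above 1 in batch 1 only.

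Near-identical copies limit how exactly reads can be given to an isoform. Of the 31-base words in the longest coding transcript of each isoform, 0.767 to 7.20% also occurred in another of the 6 actins, on either strand. For Actg1 57.1% occurred in some other annotated gene, mostly the processed pseudogene Gm12715 (53.6%), and for Actb 35.3% did, mostly Lrrc58 (22.7%). For the other 4 isoforms the share was 4.45% or less. On the log2(TPM + 1) scale, the CM-like means of Gm12715 were 0.01 (control) and 0.37 (cKO), and those of Lrrc58 were 3.03 and 4.16. Both were far below Actg1 and Actb in the same cells, so reads assigned to these copies were few, while reads of the copies assigned to Actb and Actg1 cannot be seen in the table.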

How the data were processed

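Single ventricular cells of 2 genotypes were dissociated with trypsin and collagenase IV, picked by mouth pipette and sequenced after Smart-seq2. The authors estimated TPM with Salmon on mm10, with the reporter sequences added, kept well-mapped cells and left out cells whose reporter contradicted their genotype; the version of Salmon and the annotation were not given in the sources used here. The deposited table holds TPM for 143 of 170 labelled cells, and the other 27 were not analysed here. TPM sums ran from 996133 to 999999 and no 2 columns were identical. TPM keeps no depth, so intervals cover counting of cells only. No doublet caller was run, since cells were picked by hand.

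From the TPM, log2(TPM + 1), shares of actin TPM and detected genes (TPM above 0) were computed in Python 3.11.15 with pandas 2.3.3, numpy 2.4.6 and scipy 1.17.1. Cells were clustered by Ward linkage on z-scored markers into 5 clusters. A cluster was named after a cell type from at least 3 raised markers, where no other type led its top 10 genes. Genes with TPM above 0 in more than 10 CM-like cells were compared by differences of means. The labels name no embryo, so each genotype is 1 sample and no test was made. The difference calculation was tested on simulated data with known shifts. Named genes were the 6 actins, the 3 genes most correlated with each, the highest and lowest member of each list of actin regulators, and Dgcr8; other genes were named after their values were seen. The members and lists were chosen with earlier results of these data known. Promoters and microRNAs are from RefSeq. Alternatives covered pseudocounts, scaling, clustering, filters, batches and a marker threshold.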

Additional observations from a re-analysis of the deposited data

How the results depend on the processing

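No paired analysis was possible because the labels pair no cells or embryos across genotypes and no test was run. Of 207 alternative values, 191 moved by less than the SD over cells, or for counts of genes by less than 1.5 times. The difference of Actb stayed between 1.34 and 3.13 and that of Actg1 between 1.03 and 3.40, and the lowest came from using all cells of each genotype. That setting compares mixed control cells with cKO cells that are nearly all CM-like. It gave differences of 4.37 for Actc1, 4.79 for Acta1, 4.59 for Acta2, 1.34 for Actb and 1.03 for Actg1, control shares of 37.4% for Actc1, 5.22% for Acta2, 40.5% for Actb and 14.9% for Actg1, and reversed the muscle to cytoplasmic ratio from -2.04 to 3.21. With 4 clusters, which join the mitochondrial-led cells to the CM-like cluster, the differences were 1.47 for Actc1, 1.78 for Acta1 and 2.08 for Acta2, that of the muscle to cytoplasmic ratio was -1.33, and the control shares were 72.01% for Actc1, 10.6% for Actb and 3.65% for Actg1. With the marker threshold (23 control and 32 cKO cells) the control share of Actg1 was 3.37%; the cause was not tested. As a log2 ratio of mean TPM the Actg2 difference was 2.82, where the cell with 843 TPM weighs most, and as a difference of medians it was 0. Centring on 1536 widely detected genes shifted all values by 0.15, leaving 2.76 for Actb, 3.01 for Actg1 and 0.93 for Acta2. The count of genes past the fold was 397 to 454 higher and 361 to 405 lower under the other filters.

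Cells of 1 sample per genotype cannot show variation between embryos, so the SDs above do not measure it. The 28 control CM-like cells, 9 of them from batch 2, set how precisely the control values are known. TPM cannot separate more actin mRNA per cell from less of other RNA, and the shares of isoforms depend on how reads of near-identical copies were assigned.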

Other observations

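The 10 cells of the mitochondrial-led cluster entered the comparisons of CM-like cells only where 4 clusters or all cells of each genotype were used. Actb ran from 11.8 to 9017 TPM in the 7 control cells and from 209 to 11528 TPM in the 3 cKO cells, and Acta2 ran from 3.57 to 1346 TPM and from 1256 to 7075 TPM. Actg2 was at 0 TPM in all 10 cells. These cells are too few for a comparison of genotypes, and their median of 5561 detected genes was below the 8830 of the CM-like cluster.

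In the 3 erythroid-like cells the sarcomeric Acta1 was at 2.16 to 2.92 TPM, while Actc1 ran from 14.2 to 3095 TPM. Actb ran from 1529 to 5290.5 TPM in the same cells. Its mean lay between those of control CM-like and endothelial-like cells, but the lowest cell was within the control CM-like range of 244 to 2351 TPM.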
